A study of Mus musculus with 12 samples.

Results

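The methylome described here is that of the left ventricle of control mice at weaning, measured in 6 of the 12 samples of the study. The 6 mice were wild-type FVB/N offspring (4 females, called RD female 1 to 4, and 2 males, RD male 1 and 2), killed at 3 weeks of age. Their FVB/NJ mothers were fed the regular diet (RD, a PicoLab rodent chow) from before mating, and the sires ate the same chow. The other 6 samples came from offspring of mothers on a high-fat diet and were not used here. Members were all autosomal CpG positions with a value in every one of the 6 mice, which gave 349505 of 410439 autosomal positions (85.2%). Each value is the percent of bisulfite reads that still showed a cytosine at a position, here called the methylation level. How many mothers or litters the 6 mice came from is not stated in the labels, so the p-values given below measure the spread between these mice. The tissue was bulk ventricle, and an intermediate level can come from a mixture of cells or from a mixture of alleles within each cell; these cannot be told apart.

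In mammals most cytosines followed by a guanine (CpG) carry a methyl group, which maintenance methyltransferases copy to the new strand at each cell division. The exception is the CpG island, a CpG-rich stretch that covers the start of many genes and usually stays free of methylation, whether the gene is transcribed or not. A few islands are methylated in normal somatic tissue: those of germline genes, which are silenced in the embryo, and those of imprinted genes, which are methylated on the allele from one parent. The assay, reduced representation bisulfite sequencing, cuts DNA with MspI at CCGG and therefore reads CpG-rich DNA far more often than the rest of the genome, so the averages below describe the sites read and not the whole genome.

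The range of levels at gene starts can be seen on 4 promoters, each shown as the 250 bases before the start (RefSeq, GRCm38.p6), read 5′ to 3′ on the strand of the gene with every CpG in capitals. Isl1 encodes a transcription factor of cardiac progenitors and lies at chr13:116309689-116309938 on the minus strand. Tet1 encodes an enzyme that oxidises methylcytosine and lies at chr10:62887325-62887574 on the minus strand. Plagl1 is an imprinted zinc finger gene at chr10:13090582-13090831 on the plus strand. Slc25a31 encodes the ADP/ATP carrier of the testis and lies at chr3:40708621-40708870 on the plus strand. Isl1, Tet1 and Slc25a31 have the most measured sites around their start in their gene lists, and Plagl1 was chosen after its values were seen as the imprinted promoter of intermediate level with most sites.
Isl1: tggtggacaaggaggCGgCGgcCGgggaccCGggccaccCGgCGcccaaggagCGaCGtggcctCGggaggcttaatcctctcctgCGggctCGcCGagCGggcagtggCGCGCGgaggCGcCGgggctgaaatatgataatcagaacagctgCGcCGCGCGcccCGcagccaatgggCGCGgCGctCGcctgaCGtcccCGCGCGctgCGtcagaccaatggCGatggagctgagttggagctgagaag
Tet1: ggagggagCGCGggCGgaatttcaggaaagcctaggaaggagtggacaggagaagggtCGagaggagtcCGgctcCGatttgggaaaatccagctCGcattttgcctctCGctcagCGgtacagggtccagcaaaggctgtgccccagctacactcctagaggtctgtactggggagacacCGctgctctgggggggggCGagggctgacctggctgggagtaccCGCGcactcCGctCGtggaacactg
Plagl1: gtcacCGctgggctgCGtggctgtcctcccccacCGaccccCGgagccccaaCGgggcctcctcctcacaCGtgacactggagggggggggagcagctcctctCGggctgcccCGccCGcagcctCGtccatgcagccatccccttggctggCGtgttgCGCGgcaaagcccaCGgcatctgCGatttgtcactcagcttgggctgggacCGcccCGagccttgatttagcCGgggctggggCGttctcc
Slc25a31: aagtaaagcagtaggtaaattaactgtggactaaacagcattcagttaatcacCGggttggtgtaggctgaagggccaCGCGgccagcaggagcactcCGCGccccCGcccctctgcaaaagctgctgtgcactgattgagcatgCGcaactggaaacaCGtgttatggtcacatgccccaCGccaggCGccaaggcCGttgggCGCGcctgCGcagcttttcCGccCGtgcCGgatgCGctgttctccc
Measured sites within the 300 bases around each start (250 before and 50 after) numbered 11 for Isl1, 10 for Tet1, 12 for Plagl1 and 16 for Slc25a31. Mean levels there were 0.882% ± 0.515 for Isl1, 2.61% ± 1.95 for Tet1, 67.2% ± 5.44 for Plagl1 and 76.6% ± 3.91 for Slc25a31 (SD, n = 6 mice). The stretches hold 33, 15, 19 and 18 CpGs, so Plagl1 and Slc25a31 had intermediate levels at a CpG content above that of the unmethylated Tet1 promoter.

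The 6 libraries were close to each other, with RD female 1 and RD male 2 standing somewhat apart. Between 391923 and 414414 sites had a value per mouse, counted before the limit to autosomes. The mean level over the common autosomal sites ran from 39.4 to 40.8%. Pairwise Pearson correlations over the 349505 sites lay between 0.970 and 0.983, a description across sites that share their CpG content and are not independent. RD female 1 (mean r 0.972) and RD male 2 (0.974) had the lowest mean correlation with the others, whose means were 0.976 to 0.979. The same 2 mice had the highest mean level at gene ends (11.9% and 11.4%, against 9.89 to 10.7% in the other 4). The read depth behind each value is unknown, so no interval could be given for a single site and its share in the spread was not tested. For named windows and tiles whose mean moves by over 1.5 times without these 2 mice, the mean of the other 4 is given as well.

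Gene ends were low in methylation, while gene bodies and intergenic DNA had high mean levels. A gene end was a position within 1 kb of a listed gene start (or of either end of a gene without a listed start), a gene body any other position inside a gene, and the rest was intergenic. This put 150726 sites at gene ends, 133641 in gene bodies and 65138 between genes. Mean levels were 10.6% ± 0.846 at gene ends, 59.9% ± 0.461 in gene bodies and 66.9% ± 0.368 between genes (SD, n = 6 mice). Gene ends ranged from 9.89 to 11.9% over the mice (median 10.4%), gene bodies from 59.5 to 60.6% (median 59.8%) and intergenic sites from 66.5 to 67.3% (median 66.8%), so that no mouse's gene-end value came near another mouse's body value. Within a mouse, bodies exceeded ends by 49.3 ± 0.389 percentage points and intergenic sites exceeded ends by 56.2 ± 0.496 points. Intergenic sites exceeded gene bodies by 6.97 ± 0.115 points. Each difference had the same sign in 6 of 6 mice (exact sign-flip permutation test, two-sided, p = 0.03125 for each, 0.03125 after adjustment over the 3 comparisons, the smallest value that 64 sign patterns allow). The step from bodies to intergenic sites moved with the definition, from 2.21 points for the median of 500 bp tiles to 13.2 points with a 500 bp window around starts, with intergenic sites higher throughout.

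Levels were mostly at one extreme or the other. A site was called unmethylated under 20%, methylated over 80% and intermediate between. In a mouse, 49.5% ± 0.861 of sites were unmethylated, 21.6% ± 0.685 intermediate and 28.9% ± 0.202 methylated (SD, n = 6). On the mean of the 6 mice, 39.4% of all sites lay at 0 to 5%, and 80.8% of those were at gene ends. At the other extreme, 7.60% of sites lay at 95 to 100%, and 64.7% of those were in gene bodies. By location, 87.6% of gene-end sites were unmethylated, 6.90% intermediate and 5.53% methylated. In gene bodies the shares were 24.5, 29.7 and 45.8%, and between genes 15.2, 33.6 and 51.1%. Intermediate sites were thus rare at gene ends and made up about the same share in bodies and between genes. A value of 0 in all 6 mice was found at 17.1% of gene-end sites, 2.51% of gene-body sites and 1.67% of intergenic sites.

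**Figure D1:**
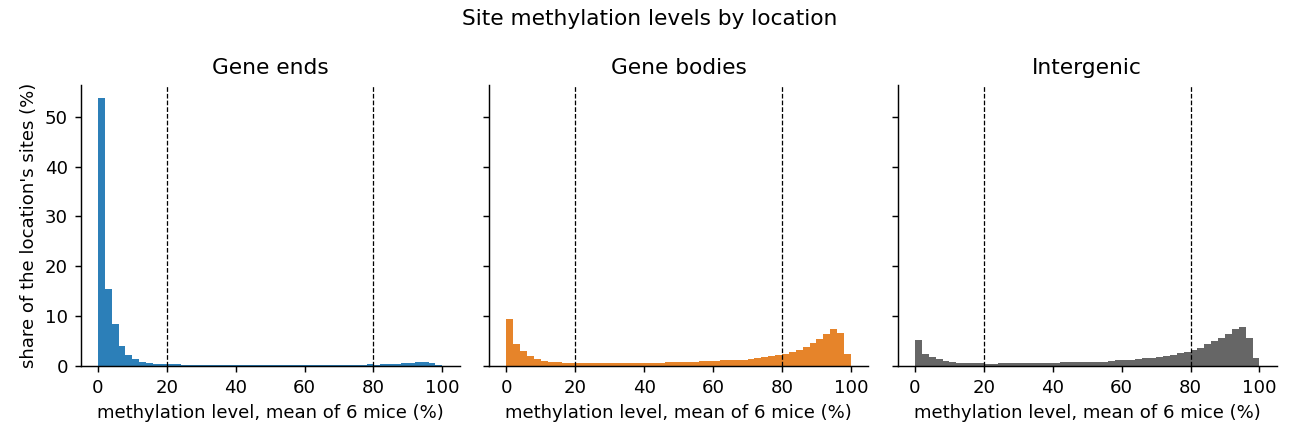
Share of the sites of each location (vertical axis, percent) by methylation level (horizontal axis, mean of 6 mice, percent, bins of 2 points), for gene ends, gene bodies and intergenic sites. Dashed lines mark the class limits at 20 and 80%; 87.6% of gene-end sites lie left of the first line, and 51.1% of intergenic sites lie right of the other.

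Levels differed by the kind of gene end. Sites within 1 kb of a listed start of a protein-coding gene had a mean of 5.75% ± 0.876 (n = 107401 sites, SD over 6 mice), and 94.1% of them were unmethylated. Sites at starts of long non-coding RNA genes away from any coding start averaged 27.1% ± 0.803, with 63.7% unmethylated and 15.6% methylated. Ends of genes for which no start was listed averaged 21.7% ± 0.767. The 3′ ends away from starts averaged 52.7% ± 0.592, nearer to gene bodies away from every end (60.2% ± 0.453) than to starts. These values were not tested against each other, and the ranges over mice of coding starts (4.96 to 7.05%), non-coding starts (26.4 to 28.3%) and 3′ ends (52.2 to 53.5%) did not overlap.

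The unmethylated zone was centred on the start and reached further into the gene than upstream. The mean was 6.92% ± 0.818 in the 500 bp before the start and 5.66% ± 0.895 in the 500 bp after it. From 500 to 1000 bp it was 17.6% ± 0.879 upstream and 10.1% ± 0.866 downstream. From 1 to 2 kb it was 37.7% ± 0.614 upstream and 27.6% ± 0.710 downstream, and 51.0% and 64.1% of the sites there were still unmethylated. Further out the order turned, with 54.8% ± 0.434 at 5 to 10 kb upstream and 60.9% ± 0.459 at 5 to 10 kb downstream. In all 12 distance ranges RD female 1 or RD male 2 had the highest value of the 6 mice; in the 500 bp after the start they stood at 7.02% and 6.41%, against 4.88 to 5.75% in the others.

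**Figure D2:**
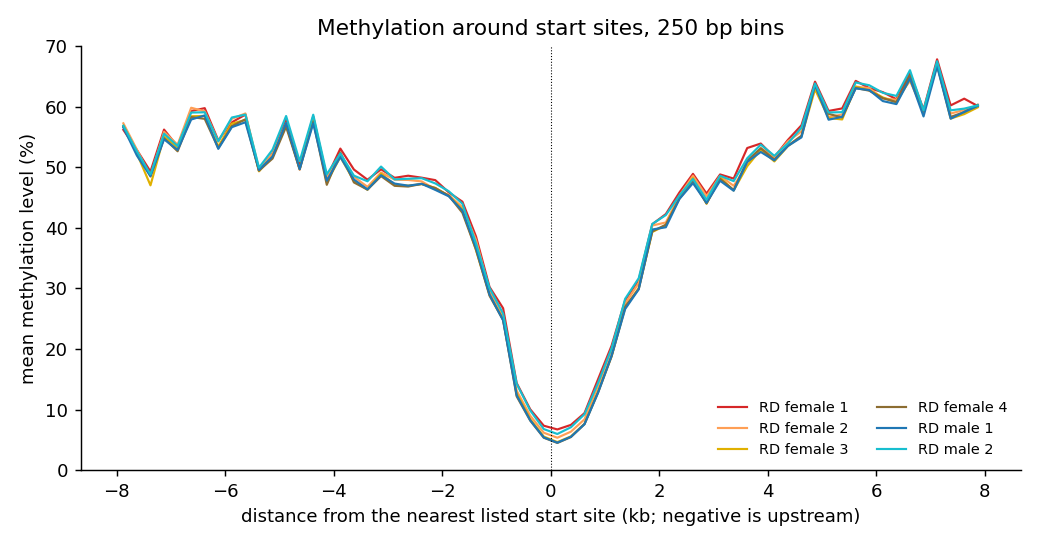
Mean methylation level (percent) in 250 bp bins against distance from the nearest listed start (kb, negative is upstream), 1 line per mouse. All 6 lines fall below 10% around the start and run almost on top of each other, with RD female 1 and RD male 2 on top near the start.

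Outside genes, levels increased with distance from the nearest gene. Intergenic sites averaged 54.5% ± 0.544 within 5 kb of a gene, 66.7% ± 0.321 at 5 to 20 kb, 73.3% ± 0.322 at 20 to 50 kb and 78.7% ± 0.281 beyond 50 kb. The unmethylated share fell in the same order from 28.2% to 4.74%, while the intermediate share stayed between 29.02 and 35.6%. Chromosome means ran from 34.4% ± 0.595 on chromosome 19 to 44.0% ± 0.589 on chromosome 10. Chromosomes 19 and 2 (35.4%) had the lowest means and the largest shares of sites at gene ends (48.0 and 47.6%), while chromosome 18, with no listed starts in the reference used, had the smallest (34.7%).

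At gene ends, tiles with more measured sites had lower levels. Non-overlapping 500 bp tiles with at least 3 measured sites were ranked by their number of sites, and those at or below the lower quartile were compared with those at or above the upper one, ties included. The sparsest tiles (at most 4 sites, 4494 tiles) averaged 25.8% ± 0.580 and the densest ones (at least 11 sites, 4574 tiles) 4.88% ± 0.974. The difference was 21.0 ± 0.473 points (range over mice 20.02 to 21.3), with sparse tiles higher in 6 of 6 mice (exact sign-flip permutation test, two-sided, p = 0.03125, the smallest possible). When tiles had to hold at least 5 sites, the difference was 10.7 points. The same order held in the other locations as a description: body tiles averaged 68.9% with 3 to 4 sites and 17.3% with 20 or more, and intergenic tiles 70.6% and 19.5%. Gene-end tiles with 20 or more sites (1190) averaged 6.65% in RD female 1, 4.90% in RD male 2 and 3.02 to 4.15% in the other 4 mice, so the densest tiles showed the largest relative gap between libraries.

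The promoter sequences carried the same relation. Of 31396 RefSeq promoters of 300 bases (250 before and 50 after the start), 4157 held enough measured sites for a level, and 3869 of these were unmethylated, 201 intermediate and 87 methylated. The median number of CpGs was 24 in unmethylated promoters, 9 in intermediate and 10 in methylated ones, against 7 over all listed promoters and 6 in those not measured. Mean level fell from 33.9% ± 0.719 with 5 to 9 CpGs (250 promoters) to 13.6% ± 0.698 with 10 to 14 and 2.35% ± 0.554 with 20 to 29 (1506 promoters). Among the 1211 promoters with 30 or more CpGs, 11 were intermediate and 4 methylated. Motifs were counted by exact letters on both strands; all of those below contain a CG, so they rise with CpG content. GGGCGG, the core of an Sp1 site, was present in 72.0% of unmethylated, 31.3% of intermediate and 23.0% of methylated promoters, against 69.0% of measured and 36.0% of all listed promoters. GCGGGA, part of an E2F site, was present in 43.2, 18.9 and 9.20%, against 41.3% of measured and 20.2% of all. CACGTG, an E-box, was present in 10.4, 13.4 and 9.20%, against 10.5% of measured and 7.14% of all, so its share did not follow the class. TGCCGC, part of the ZFP57 site, was present in 22.8, 11.4 and 18.4%, against 22.2% of measured and 11.6% of all. The cyclic AMP response element TGACGTCA was present in 3.46% of unmethylated, 0.498% of intermediate and none of the 87 methylated promoters, against 3.25% of measured and 1.83% of all. Among the printed sequences, GGGCGG is in the Tet1, Plagl1 and Slc25a31 stretches, CACGTG in those of Plagl1 and Slc25a31, and TGCCGC in that of Plagl1.

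Gene by gene, 13162 genes had a window with at least 3 sites within 1 kb of a listed start (or of either end where no start was listed). Of these, 10685 were unmethylated, 1475 intermediate and 1002 methylated. Among 9827 protein-coding genes the shares were 89.7, 7.77 and 2.49%. Long non-coding RNA genes (2214) had 66.8, 20.1 and 13.1%, and microRNA genes (199) 51.3, 23.6 and 25.1%. Pseudogenes had the opposite make-up, with 11.1% unmethylated, 28.7% intermediate and 60.2% methylated of 603 windows. Mean levels of gene bodies were close together whatever the class of the window. In 4841 coding genes with both, bodies averaged 65.7% ± 0.378 behind unmethylated windows, 63.8% ± 0.457 behind intermediate ones and 64.6% ± 0.624 behind methylated ones (SD, n = 6 mice). Their class make-up was less alike: 48.0, 61.4 and 52.3% of bodies were intermediate and 40.5, 31.1 and 37.4% methylated, with medians of 74.8, 69.8 and 71.9%.

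The coding windows with most sites in each class show what these classes look like. The unmethylated ones were Trank1, a gene of ankyrin and tetratricopeptide repeats (106 sites, 4.30% ± 2.82), Pde8a, a cyclic AMP phosphodiesterase (100 sites, 9.32% ± 6.11), Deaf1, a transcription factor (92 sites, 5.65% ± 1.39), the window shared by the chaperonin gene Cct7 and Pradc1 (85 sites, 1.76% ± 1.33), and the Notch ligand gene Jag2 (85 sites, 7.24% ± 7.20). In Trank1 the mice ran from 2.39 to 9.86% (median 3.25%), and the body of the same gene stood at 80.4% ± 2.11. In Jag2 they ran from 1.96 to 21.4% (median 4.77%), and the body stood at 90.02% ± 0.948. RD female 1 was the highest mouse in both windows; without it and RD male 2 the means were 3.21% ± 0.925 for Trank1, 5.61% ± 2.48 for Pde8a, 0.918% ± 0.300 for Cct7 and Pradc1, and 3.66% ± 1.66 for Jag2 (n = 4).

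The intermediate windows with most sites fell into stable and unstable ones. Tmem267, a transmembrane protein gene, stood at 67.2% ± 0.962 over 67 sites (66.1 to 68.6%, median 67.3%). Fam83g stood at 23.9% ± 0.919 over 50 sites, Gm40881 at 25.2% ± 1.44 over 62, and Commd1, a gene of copper transport that hosts the imprinted Zrsr1, at 57.7% ± 2.10 over 61. The Commd1 window begins at the first site of the Zrsr1 window (chr11:22971999, 42 sites, 73.9% ± 2.39) and runs on to 22982292. Its mean therefore pools more than 1 place. Arhgap32, which encodes a GTPase-activating protein, stood at 29.9% ± 14.6 over 51 sites. Its mice spread from 17.1% in RD female 4 to 55.9% in RD female 1 (median 26.2%), with RD female 2 (34.4%) and RD male 2 (31.7%) above the remaining ones; without RD female 1 and RD male 2 the mean was 22.9% ± 7.79 (n = 4). The means of the first 4 of these windows stayed within a few points over the mice, while that of Arhgap32 crossed a large part of the scale.

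The methylated windows with most sites were those of Slc25a31 (35 sites, 81.8% ± 2.61), D1Pas1, a DEAD-box helicase gene of the testis (31 sites, 85.2% ± 2.31), Rpl10l, a testis copy of the ribosomal gene Rpl10 (23 sites, 93.3% ± 1.46), Abhd16b (22 sites, 81.9% ± 1.33) and Fkbp6, a gene needed in meiosis (22 sites, 84.9% ± 1.81). The lowest mouse of any of the 5 was RD male 1 in Slc25a31 at 78.6%, and the highest was RD female 2 in Rpl10l at 95.5%. Levels in these windows differed little between mice.

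Fixed gene lists, nearly all of coding genes, were then read against the 89.7% of coding windows that were unmethylated. Of 16 housekeeping genes 12 had a window, and 12 of 12 were unmethylated (median 1.67%). Eef1a1, a translation elongation factor, was the highest at 2.96% ± 1.68 (0.699 to 4.88%, median 3.19%) and Gusb, a lysosomal enzyme, the lowest at 0.300% ± 0.736. Polr2a, the large subunit of RNA polymerase II, had the largest SD (1.40% ± 3.43, 4 sites), because RD female 4 stood at 8.41% and the other 5 at 0; in Gusb, too, RD female 4 alone was above 0. Actb, Tubb5 and Ywhaz had fewer than 3 measured sites in their windows and were not classed.

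Cardiac transcription factor genes were likewise unmethylated in 12 of 12 windows (median 3.17%), but they spread more than the housekeeping genes. Mef2c, a factor of muscle differentiation, was the lowest at 0.794% ± 0.360. Hand1, a factor of ventricle formation, was the highest at 14.9% ± 4.03 (11.3 to 22.5%, median 14.4%). Hand2 had the largest SD (3.53% ± 5.35, with a lowest mouse at 0 and RD female 1 highest at 12.8%); its mean was 1.68% without RD female 1 and 2.10% ± 3.54 without RD female 1 and RD male 2. Nkx2-5, the homeobox factor of early heart cells, stood at 10.8% ± 3.10 around its start and at 3.24% ± 0.577 over 34 sites in its body. Tbx5, for which no start was listed, stood at 11.01% ± 3.41 over 5 sites near one of its ends and at 12.0% ± 0.980 over 55 body sites. Of 11 bodies in this list 8 were unmethylated, against 10.8% of 8004 coding genes with a measured body; that of Gata6 was intermediate (26.9% ± 1.18) and those of Myocd (88.1% ± 2.20) and Prox1 (83.8% ± 2.04) were methylated. Gata4, Srf and Tbx20 were not classed at their ends; their bodies were unmethylated (Gata4 14.1% ± 0.980 over 92 sites).

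Developmental regulators, mostly homeobox and paired box genes with a few other transcription factors such as Foxa2, Olig2 and Gata3, were unmethylated in 25 of 25 windows (median 3.23%) and in 20 of 24 bodies (body median 6.75%), against 10.8% of the bodies of all coding genes. En1, a factor of the mid-hindbrain, was the lowest at 1.28% ± 0.436 and Dlx5, a factor of bone and jaw, the highest at 7.62% ± 2.54. Nkx6-1, a factor of pancreas and spinal cord, had the largest SD (5.58% ± 4.02, from 1.67 to 12.7%). Hoxd13, a limb gene, stood at 2.18% ± 0.449 over 56 sites. The other 4 bodies were intermediate: Pax2 (24.4% ± 1.55), Pax5 (40.6% ± 0.520), Gata3 (45.5% ± 1.88) and Pax3 (68.5% ± 2.08, 3 sites).

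Germline genes had the reverse profile at their starts. Of 15 windows none was unmethylated, 6 were intermediate and 9 methylated (median 82.3%), against 89.7% unmethylated over coding genes. Dazl, an RNA-binding protein gene of germ cells, was the highest at 95.3% ± 1.89 over 16 sites (91.6 to 96.6%, median 96.1%). Mael, a gene of piRNA-guided silencing, was the lowest at 56.9% ± 3.52 over 7 sites (50.2 to 59.8%, median 57.9%). Between them stood 3 genes of the synaptonemal complex of meiosis, Sycp1 (74.2% ± 3.79), Sycp3 (72.6% ± 3.74) and Sycp2, which with 30 sites was among the best measured (72.0% ± 1.37, from 69.6 to 73.7%, median 72.1%). Mov10l1, a helicase of the piRNA pathway, stood at 64.6% ± 4.67, and Hormad1, a gene of the meiotic chromosome axis, had the largest SD (91.1% ± 6.55, 3 sites). The Slc25a31 sequence above belongs to this list, and at 18 CpGs in 250 bases its CpG content is above that of most intermediate and methylated promoters.

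Imprinted genes were mostly intermediate; their control regions are known to carry methylation on the allele of one parent. The 17 genes had 16 distinct windows, since Peg10 and Sgce share the same sites. Of these 12 were intermediate, 3 unmethylated and 1 methylated, with a median of 49.2%; over all genes 11.2% of windows and over coding genes 7.77% were intermediate. Snrpn, on the chromosome segment of the Prader-Willi syndrome, stood at 50.7% ± 6.09 (40.8 to 55.9%, median 52.7%). Gnas stood at 47.5% ± 3.09 over 40 sites, a mean that pools more than 1 start, from chr2:174284851 to 174328756. H19 stood at 46.2% ± 1.92, Nnat at 52.3% ± 5.97 and Kcnq1ot1, a long non-coding RNA, at 43.0% ± 8.95. Others lay higher, among them Plagl1 (67.2% ± 5.44), Igf2r (67.4% ± 4.89), the window shared by Peg10 and Sgce (69.5% ± 5.31), Zrsr1 (73.9% ± 2.39) and Peg13 (76.6% ± 1.68). Airn, the non-coding RNA antisense to Igf2r, had the largest SD of the list (47.7% ± 10.7). Its values were 59.6% in RD female 1, 51.5% in RD female 2, 44.1% in RD female 3, 36.4% in RD female 4, 35.7% in RD male 1 and 59.2% in RD male 2, so the 2 libraries that stand apart were the highest; without them the mean was 41.9% ± 7.43 (n = 4).

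A few imprinted genes were at an extreme. Mest, an early mesoderm gene, had the highest window of the list at 94.4% ± 3.94 over 16 sites (87.8 to 98.3%, median 95.5%). Inpp5f (3.13% ± 2.05), Grb10 (4.29% ± 2.11 over 51 sites) and Rasgrf1 (8.23% ± 4.26) were unmethylated around their listed starts, while their bodies stood at 35.9% ± 4.04, 51.8% ± 5.79 and 87.0% ± 1.69. Imprinted control regions do not always lie at the listed start, and these windows cover the listed starts alone. The median SD over mice of the 16 windows was 4.57 points, against 1.55 over all windows, 3.88 over all intermediate windows and 2.15 for the germline list.

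Genes of the methylation machinery were close to other genes at their starts. Of 6 windows 5 were unmethylated (89.7% over coding genes), from Tet2 at 0.421% ± 0.472 to Dnmt3b, a de novo methyltransferase, at 1.59% ± 0.707; Tet1, whose promoter is printed above, stood at 1.58% ± 0.803. Tet3 was intermediate at 29.4% ± 8.74 (18.2 to 39.7%, median 29.4%) on 3 sites. Of 11 bodies 7 were methylated and 4 intermediate, with a median of 88.6%, against 39.7% methylated and a median of 74.5% over all coding genes with a measured body; Dnmt1, the maintenance methyltransferase, stood at 89.8% ± 1.58 and Dnmt3a at 48.1% ± 2.85.

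Marker genes of heart cells and of other cells were then compared as lists, although a bulk level cannot be given to a cell type. Cardiomyocyte markers were seldom classed at the start: 5 of 22 had a window, 4 of them unmethylated. Atp2a2, the calcium pump of the sarcoplasmic reticulum, was the lowest at 0.719% ± 0.888 (0 to 2.09%, median 0.397%; 0.445% without RD male 1), and Ryr2, the calcium release channel, stood at 2.42% ± 1.57 over 28 sites. Nppa, which encodes atrial natriuretic peptide, was intermediate at 74.97% ± 8.89 on 3 sites (64.5 to 90.7%, median 72.3%). Bodies were better covered: 11 of 13 were intermediate, with a median of 67.0%. Mb, the myoglobin gene, had the lowest body (21.4% ± 3.96), Tnnt2, cardiac troponin T, stood at 47.7% ± 4.74, Myh6, the alpha myosin heavy chain, at 64.8% ± 4.37, and Ttn, titin, at 79.0% ± 0.932 over 70 sites. Over all coding genes with a measured body, 49.6% of bodies were intermediate and the median body was 74.5%.

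Endothelial markers were unmethylated in 6 of 8 windows. Erg, a transcription factor, was the lowest (1.47% ± 1.55), and Flt1, a VEGF receptor, had the smallest SD of the 8 (1.66% ± 0.234 over 34 sites). Esam, an adhesion molecule (47.7% ± 2.59, 44.0 to 51.9%), and Nos3, the endothelial nitric oxide synthase (29.3% ± 2.07, 26.2 to 32.4%), were intermediate, with windows that joined both ends because no start was listed. Their bodies were unmethylated (8.20% ± 4.08 and 6.93% ± 6.80 on 3 and 4 sites). Sox17 had the largest SD (5.10% ± 4.72; 3.30% without RD male 2, which stood at 14.1%). Fibroblast and mural markers were unmethylated in 4 of 4 windows, from Pdgfra (1.68% ± 0.655) to the collagen gene Col1a2 (10.5% ± 9.33, 0 to 22.1%).

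Markers of other cells did not stand out as methylated. Of the blood and immune list 2 of 3 windows were unmethylated, Cd4 (2.26% ± 0.569) and Tal1, while Cd79b, a B cell receptor subunit, was intermediate (62.2% ± 9.74, 45.8 to 75.2%, 3 sites). Of the markers of other tissues 3 of 4 were unmethylated, from Apoa2, a liver apolipoprotein (1.62% ± 1.12), to Cdx1, a gut homeobox gene (15.8% ± 2.54). Gfap, the filament of astrocytes, was methylated at its start (86.7% ± 1.63, 84.3 to 89.2%, 13 sites) and unmethylated over 9 body sites (5.48% ± 4.401). With 3 to 8 windows each, these lists do not tell heart from other tissue, and the labelled tissue could not be checked further from methylation levels.

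**Figure D3:**
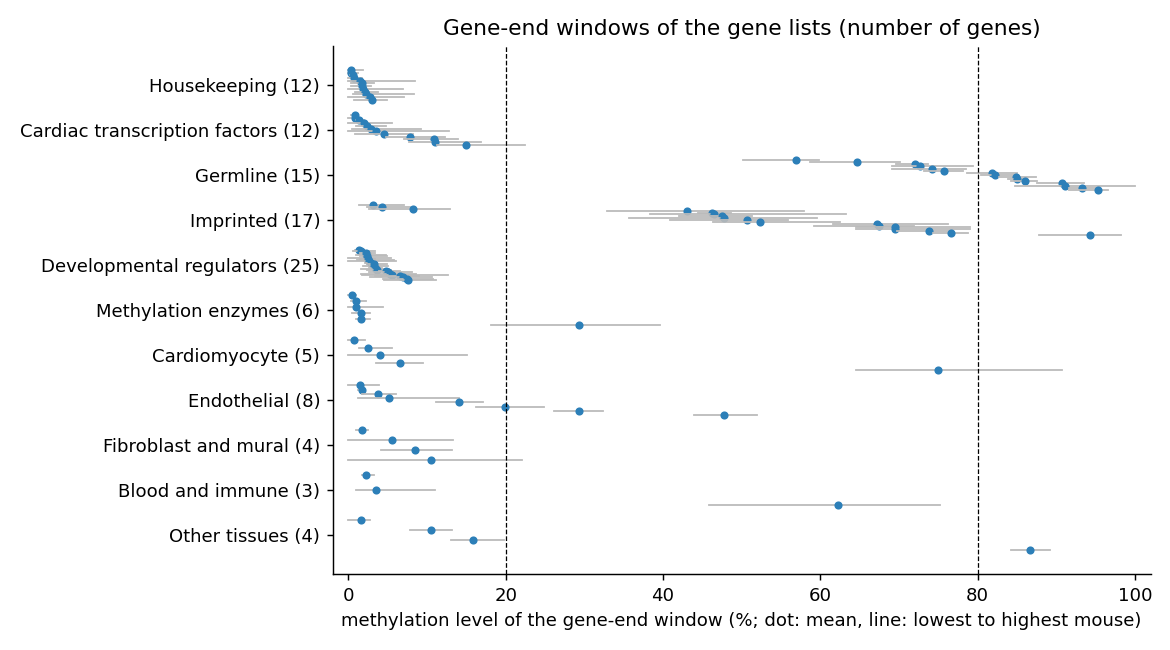
Methylation level (percent) of the gene-end windows of each list; each dot is the mean of 6 mice for 1 gene and each line runs from the lowest to the highest mouse, with the number of genes in brackets and the class limits dashed. Housekeeping, cardiac transcription factor and developmental genes lie below 20%, 15 of 15 germline genes lie above it, and 13 of 17 imprinted genes lie between the limits.

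Unmethylated CpG-rich DNA was also found away from gene ends. Of 18382 gene-body tiles 3432 (18.7%) were unmethylated, as were 1200 of 9385 intergenic tiles (12.8%), against 83.5% of 16032 gene-end tiles. The body tiles with most sites lay in Ankrd24 (chr10:81643505-81643984, 53 sites, 1.05% ± 1.204), Foxq1, a forkhead factor (chr13:31559505-31559999, 49 sites, 1.47% ± 0.931), Siglec15, Ntn1, the guidance cue netrin 1 (chr11:68385075-68385485, 47 sites, 3.04% ± 2.51), and Ttc34 (46 sites, 3.14% ± 3.33). The intergenic tiles with most sites lay nearest to, or at the outer edge of, D130051D11Rik (chr15:85625686-85625947, 35 sites, 1.35% ± 1.02), 1520401A03Rik (35 sites, 5.14% ± 7.70), Ebf3, Scn8a, a sodium channel gene (30 sites, 2.47% ± 2.70), and Otx1, a homeobox gene of the forebrain (chr11:21993241-21993475, 29 sites, 3.74% ± 1.14). The tile at Ebf3, a neuronal transcription factor, was less fixed, with mice from 1.77 to 20.6% (median 12.0%). RD female 1 was the highest mouse in the tiles at Ankrd24 (3.32%), Foxq1 (3.27%), Ttc34 (8.53%), 1520401A03Rik (20.5%) and Scn8a (7.36%), and RD male 2 in that at Ntn1 (7.12%). Without these 2 mice the means were 0.726% for Ankrd24, 0.981% for Foxq1, 1.73% for Ntn1, 1.08% for Ttc34, 1.30% for 1520401A03Rik and 1.58% for Scn8a.

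The intermediate intergenic tiles with most sites were 5 adjoining ones nearest to Rn18s-rs5, a ribosomal RNA locus, from chr17:39843014 to 39845496. Their means were 37.5% ± 2.22, 41.0% ± 2.64, 40.0% ± 5.24, 54.1% ± 3.66 and 41.8% ± 1.95, in order of position, with 49 to 92 sites each. Ribosomal RNA genes exist in many near-identical copies, so reads of other copies may be counted here, and the level is uncertain as that of this locus.

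Between mice, most sites kept their class. Of the 349505 sites 76.1% were in the same class in all 6 mice, 87.6% at gene ends, 68.5% in gene bodies and 64.8% between genes. Without RD female 1 and RD male 2, 83.0% were in the same class in the other 4 (93.2, 76.4 and 72.6% by location); fewer mice give fewer chances to differ. The median SD over mice was 3.89 points per site. It was 2.15 for unmethylated, 8.06 for intermediate and 4.35 for methylated sites. Finer bins showed the same arch, with 1.57 at a mean level of 0 to 5%, 8.68 at 40 to 60% and 2.75 at 95 to 100%. Among intermediate sites the median SD was 8.34 at gene ends, 8.15 in bodies and 7.78 between genes. Among unmethylated sites it was 1.92, 2.97 and 3.22, and among methylated ones 4.39, 4.28 and 4.45. The spread of a percentage is by its nature smallest near 0 and 100, and the share of read sampling in it was not tested because depth is unknown. Averaging over tiles lowered it: the median SD of 500 bp tiles was 1.55 for unmethylated, 4.75 for intermediate and 2.53 for methylated tiles.

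Neighbouring sites carried the same level. Sites 2 to 10 bp apart were in the same class in 94.8% of 113375 pairs, with a median difference of 0.849 points between their means. At 10 to 50 bp the share was 86.4%, at 200 bp to 1 kb 73.4%, and from 1 to 10 kb 42.2%. The mean difference increased from 3.15 points at the shortest range to 33.3 points at the longest.

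A measure of spread inside a mouse came from 3996 CpGs of which both cytosines, on opposite strands, were listed. The strands differed by 7.46 ± 0.862 points on average (SD over 6 mice, range 6.53 to 8.42), and 2 mice differed at the same cytosine by 6.15 points (5.28 to 6.85 over the 15 pairs of mice). For unmethylated CpGs the values were 4.13 and 3.88 points, for methylated ones 6.43 and 6.11, and for intermediate ones 14.5 and 10.3. Both differences hold read sampling at an unknown depth, and they were not tested against each other. Of the 3996 CpGs 64 (1.60%) differed between strands by over 20 points in each of the 6 mice, with the same sign in 6 of 6.

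**Figure D4:**
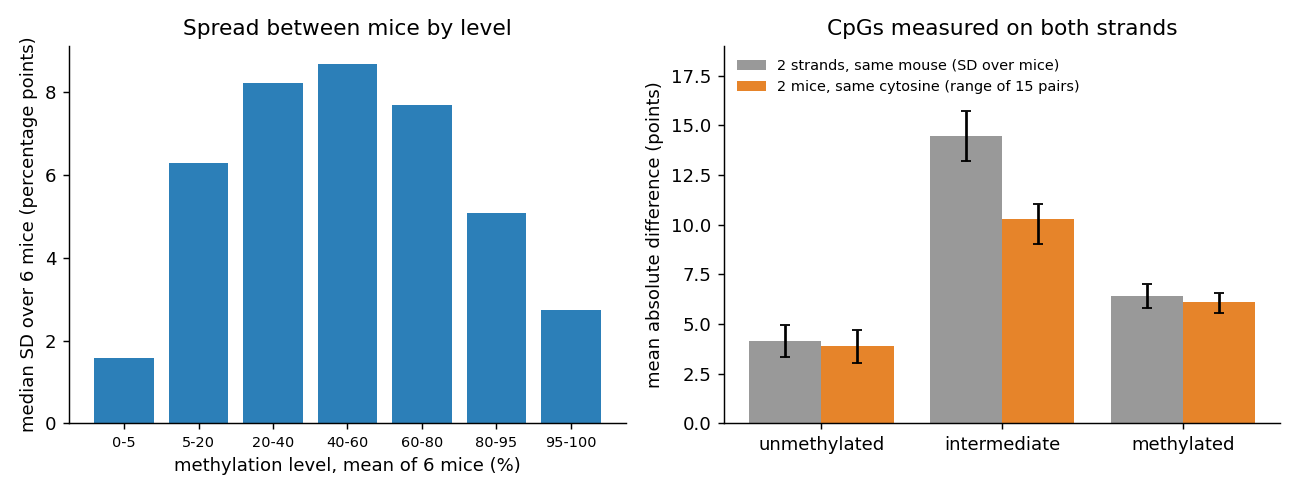
Left, median SD over 6 mice per site (percentage points) by mean methylation level (percent); right, mean absolute difference (points) between strands in the same mouse (grey, error bars SD over 6 mice) and between mice at the same cytosine (orange, error bars the range over 15 pairs) by class. The spread peaks at 8.68 points for sites of 40 to 60%, and the grey bar is the taller one in each class.

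Some intermediate tiles hardly varied. The 5 with at least 5 sites and the smallest SD were in Triml2 (77.1% ± 0.411, 76.6 to 77.8%), Exoc6b (74.7% ± 0.460), Sec24b (77.4% ± 0.463), Kcng1 (61.8% ± 0.511 over 12 sites) and Dlgap2 (78.8% ± 0.538). They encode, where a function is established, an exocyst subunit (Exoc6b), a coat protein of transport vesicles (Sec24b), a potassium channel subunit (Kcng1) and a synaptic scaffold protein (Dlgap2). Being picked as extremes of 3681 intermediate tiles with at least 5 sites, they show the lower end of the spread and not a tested property.

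At the other end stood the 10 tiles with the largest SD among tiles with at least 5 sites. The first lay in Zeb1, a zinc finger repressor, where the 6 mice ran from 4.12% in RD female 4 to 73.7% in RD female 1 (median 14.9%). A tile nearest to Ugcg, a ceramide glucosyltransferase gene, stood at 64.9% in RD female 1 and at 0.385 to 12.5% in the others. Tiles in Epha10 and Epha7, ephrin receptor genes, stood at 61.1 and 57.3% in RD female 1 and 43.9 and 29.5% in RD male 2, against 2.01 to 12.4% and 0.267 to 10.1% in the other 4. RD female 1 was the highest mouse in these 4 tiles.

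A single mouse made most of the spread in 3 further tiles. In Nectin3, an adhesion gene, RD female 1 stood at 59.3% and the others at 0 to 3.82%; its 17 sites ran from 41.1 to 65.5% in that mouse and did not exceed 6.67% in any other. In Gpr139, an orphan receptor gene, RD female 2 stood at 59.8% and the others at 0.463 to 5.47%. In Terf2, a telomere protein gene, RD male 2 stood at 55.3% and the others at 0 to 3.81%. The difference thus ran over every measured site of the tile in the mouse concerned. The other tiles of this set were graded: Zfhx3, a homeobox gene (29 sites), ran from 21.1% in RD female 4 to 76.4% in RD female 1 (median 48.2%), Snx20 from 22.1 to 74.4% (5 sites) and Ppp1r15b, a phosphatase subunit of the stress response, from 3.91 to 66.6% (10 sites).

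Departures of a single mouse were then counted over all 43799 tiles, by a definition chosen after these values were seen: over 20 points from the median of the other 5, whose own range was under 10. In 281 tiles 1 mouse lay above the others and in 44 below. RD female 1 was the mouse above in 136 tiles and RD male 2 in 100, 236 of 281 together, followed by RD female 2 with 31. RD female 3 and RD female 4 had 6 each and RD male 1 had 2. Of the 281 tiles 207 (73.7%) were at gene ends, about the share that gene ends have among all unmethylated tiles (74.3%), and in 257 of the 281 the other mice were under 20%. In 128 of the 136 tiles of RD female 1 and 94 of the 100 of RD male 2 the other mice were under 20%. Tiles of RD female 1 held a median of 15.5 sites and those of RD male 2 held 6. The median was 5 over all tiles, 7 over unmethylated tiles and 8 over unmethylated gene-end tiles. Downward departures were spread over the mice, with 3 to 11 each.

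The same 2 mice accounted for much of the spread of unmethylated tiles. Of 18016 unmethylated tiles 331 had an SD over 10 points, 197 without RD female 1 and 97 without RD female 1 and RD male 2. Of 10773 intermediate tiles 676 had such an SD, and 659 without the same 2 mice, so there the number hardly moved. Mean levels at unmethylated gene-end tiles were 3.75% in RD female 1 and 3.63% in RD male 2, 2.96% in RD female 2 and 2.19 to 2.30% in the remaining mice. The part of library quality, of conversion of unmethylated cytosines and of differences between the animals in this result was not tested.

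**Figure D5:**
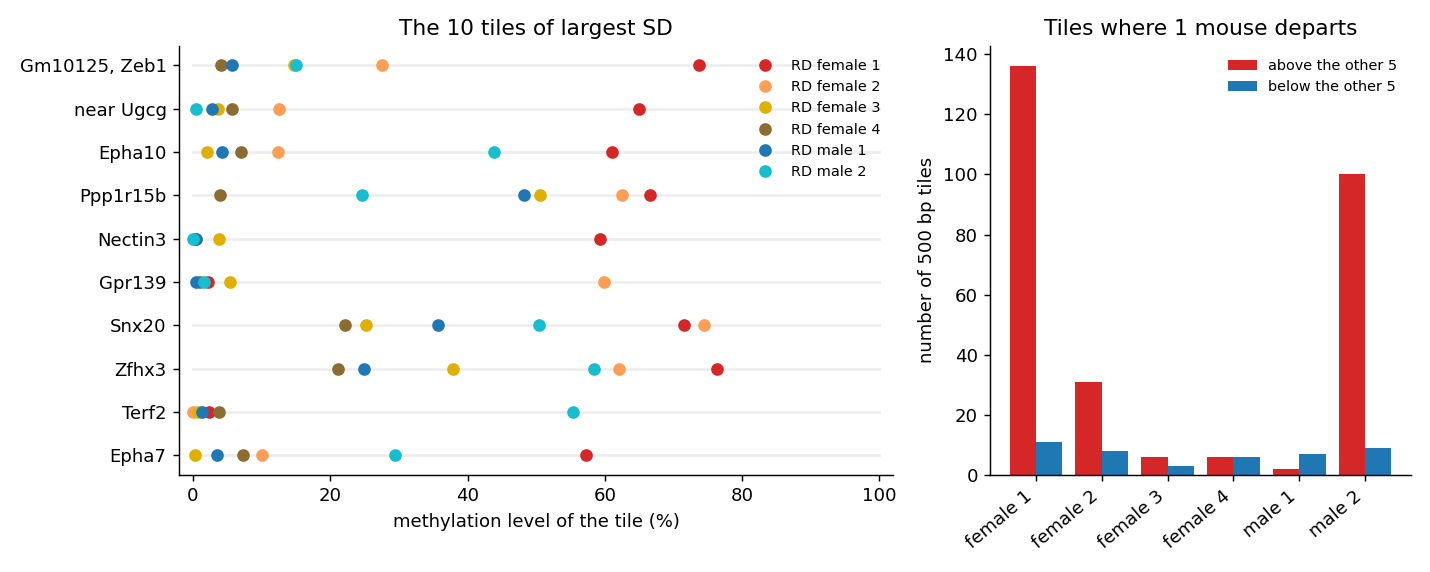
Left, methylation level (percent) of each mouse in the 10 tiles with the largest SD among those with at least 5 sites; right, number of 500 bp tiles in which 1 mouse lies over 20 points above (red) or below (blue) the median of the other 5, whose own range is under 10 points. RD female 1 is the highest mouse in 7 of the 10 tiles, and RD female 1 and RD male 2 hold 136 and 100 of the 281 upward departures.

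Sex was examined as a source of the spread, on 4 females and 2 males. No tile was called (0 of 27892 with a mean level of 5 to 95%, 0% of the tiles tested, limma with Benjamini-Hochberg adjusted p under 0.05), and 1264 tiles (4.53%) had an unadjusted p under 0.05. No single site was called either (0 of 185140, 0%), with 8588 (4.64%) at an unadjusted p under 0.05. Without the limit on the mean level, 443 of 349505 sites were called (limma adjusted p under 0.05), 82 higher and 361 lower in females. On simulated shifts of 2 on the log2 ratio scale the tile test recovered 150 of 200 tiles with 8 false calls, and at a shift of 1 it recovered 0; the site test recovered 0 at both. A shift of that smaller size in single tiles, or of either size at single sites, was therefore not detectable here. The tile with the smallest p was nearest to n-TRtct1, a transfer RNA gene (chr19:12011717-12011772), with 0.552% ± 0.720 in females (0 to 1.52%) and 18.7% ± 3.16 in males (16.5 and 21.0%; limma adjusted p = 0.182). The next was in Cntnap5b, a neurexin family gene (chr1:99772206-99772274), with 1.59% ± 1.96 in females and 24.4% ± 4.25 in males (limma adjusted p = 0.517). The sexes did not overlap in either tile, but both tiles were picked for their small p and neither passed the adjustment over all tiles. How many of all tiles separate the sexes was not counted. Leaving out either male leaves a single male, so those fits are not read as a test of sex.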

How the data were processed

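Left ventricle DNA of the mice was digested with MspI, converted with bisulfite and sequenced on a NovaSeq, per the labels' protocols. The submitters' processing notes name FastQC, Trim Galore, Bismark 0.19, limma and the build mm10. The authors deposited 1 table of percent methylation per CpG position and sample, per the file headers and the values; read counts and a coverage minimum are not given in the sources used here, so no coverage filter could be applied. The table held 421177 sites, of which 410439 were autosomal, and each of these had a value in at least 4 of the 6 mice. Positions were used as deposited.

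Genes came from RefSeq tables of GRCm38.p6. Of 29930 positions inside the listed promoter sequences 99.99% fell on a CpG. The promoter table, the source of strand and start, covers 54.7% of autosomal genes (79.6% of protein-coding genes) and none on chromosome 18. Gene ends were therefore listed starts ± 1 kb, or both ends for genes without a listed start. Exons and introns were not used here. Levels were averaged over sites within a mouse, then over mice.

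Location and density differences were tested with an exact sign-flip permutation test over 6 mice. Sex was fitted with limma 3.58.1 (R 4.3.3) on log2((rate + 0.05)/(1 − rate + 0.05)), after a test on simulated data. Tables were made with Python 3.11.15, pandas 2.3.3 and numpy 2.4.6. Named windows and tiles were those with most sites per class, the 10 tiles with the largest and the 5 intermediate ones with the smallest SD (at least 5 sites), and, per list, the lowest, highest and largest-SD gene and up to 5 genes outside its commonest class; further list genes were named after their values were seen. Members, lists and tests were chosen with earlier results of these data known. Alternatives covered class limits, window, tile size, site filter and each mouse left out.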

Additional observations from a re-analysis of the deposited data

Results flagged for a closer look

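The 6 mice were examined for 1 value far from the others (Dixon's rule at 95%) in 79 sets of values: the named windows and tiles and the per-mouse means, site counts and class shares. The 10 tiles of largest SD, Nectin3, Gpr139 and Terf2 among them, were left out because they were chosen for their spread. This picked out 12. Chance picks out about 1 in 20 sets that were not selected, 3.95 of 79, but many of these windows were named as the lowest, highest or largest-SD gene of a list, so that number is no yardstick here. RD female 1 was the mouse concerned in 5 of them, RD male 2 in 4, RD female 4 in 2 and RD female 2 in 1.

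RD female 1 stood above the others in the windows of Trank1 (9.86%, others 2.39 to 4.45%) and Jag2 (21.4%, others 1.96 to 7.45%). It was also highest in the unmethylated tiles in Ankrd24 (3.32%, others 0.0993 to 1.28%) and Foxq1 (3.27%, others 0.701 to 1.64%). At the tile nearest to 1520401A03Rik it stood at 20.5%, against 0.488 to 5.17%.

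RD male 2 stood above the others in the windows of Inpp5f (7.03%, others 1.33 to 3.18%) and Sox17 (14.1%, others 1.25 to 5.92%). In 2 germline windows it was below them: Dazl (91.6%, others 95.1 to 96.6%) and Mael (50.2%, others 56.4 to 59.8%). RD female 4 stood at 1.80% in Gusb and 8.41% in Polr2a, where the other 5 mice were at 0, on 3 and 4 sites. RD female 2 stood at 22.5% in Hand1, against 11.3 to 15.3%.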

How the results depend on the processing

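The 3 location differences kept their direction under each alternative run, with p = 0.03125 (exact sign-flip permutation) wherever 6 mice were used. Bodies minus ends ran from 41.4 to 76.8 points, intergenic minus ends from 53.9 to 79.0, intergenic minus bodies from 2.21 (median of tiles) to 13.2 (500 bp window), with 3.04 for a 2 kb window and 12.6 with both ends of every gene, and sparse minus dense tiles from 10.7 (at least 5 sites) to 22.6 (1 kb tiles). Leaving out 1 mouse at a time gave 49.2 to 49.4, 56.1 to 56.4, 6.95 to 7.01 and 20.9 to 21.1 points; 5 mice cannot give a p below 0.0625.

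Class shares follow the limits. With limits of 10 and 90% the unmethylated, intermediate and methylated shares were 44.9, 37.0 and 18.1%, with 30 and 70% they were 52.3, 12.4 and 35.3%, and for tile means 40.9, 25.05 and 34.0%. With sites valued in at least 4 of 6 mice, 51.3% were unmethylated and 27.6% methylated. One mouse left out gave 49.4 to 49.8, 21.4 to 21.8 and 28.8 to 28.9%. The share in the same class in all mice was 63.8% (10 and 90%), 82.3% (30 and 70%), 82.8% (tiles), 77.6 to 79.3% with 1 mouse left out and 83.0% without RD female 1 and RD male 2. Leaving out that pair, and the settings on listed starts and both ends, were chosen after seeing the data.

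For sex, limma called 443 sites (82 higher and 361 lower in females) when no limit was set on the mean level, and with 1 mouse left out 0 to 12 tiles (12 without RD male 1) and 0 sites. With replicate number as a block, 0 tiles and 0 sites were called. Whether equal numbers mark a shared litter or batch is not stated in the labels. The difference between numbers 1 and 2 had a correlation of -0.0287 between the sexes over 27892 tiles. With 1 such difference per sex, this cannot decide whether the numbers pair the mice. The cause of the change to 443 sites was not tested. Read depth is unknown, so its part in the spread of single sites and small tiles was not tested.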
